A study of Homo sapiens with 12 samples.

Results

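The transcriptome of OCI-Ly7 cells given 5-azacitidine and an HDAC3 inhibitor together was set against that of cells given vehicle, over every gene with enough reads to test. OCI-Ly7 is a human lymphoma line of the germinal-centre B-cell type. Of 78892 annotated genes, 17869 passed a filter on low counts, and these are the members described here. The comparison rests on 3 libraries per group, and the series holds 12 libraries in 4 groups, the other two groups having received 1 drug each. Cells of the combination group (HDAC3i_AZA) took 100 nM 5-azacitidine every day from day 0 to day 4 and the inhibitor (HDAC3i) at 15 µM on days 2 and 4. The vehicle group had both drugs at 0. The AZA group had 5-azacitidine alone and the HDAC3i group the inhibitor alone, on the same days, and all cells were taken on day 5. The inhibitor is known here only as a specific HDAC3 inhibitor. All libraries come from 1 cell line, and the labels do not say whether replicates were separate cultures, so the p-values weigh differences only against library-to-library spread that could be technical.

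HDAC3 is the histone deacetylase of the NCoR corepressor complex. In germinal-centre B cells and the lymphomas derived from them, the repressor BCL6 recruits this complex to keep genes of antigen presentation, cell cycle arrest and plasma-cell differentiation quiet. 5-azacitidine is a cytidine analogue that enters RNA and, after reduction, DNA, where it traps the DNA methyltransferases and lowers CpG methylation as cells divide. The question the design asks is what the drugs do to gene expression when given together.

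Depth was even, at 35947872 to 36337086 counts per library over the series. Levels are given in CPM, counts scaled to a library total of 1000000, with SD over n = 3 libraries, and log2 fold changes are given with their standard error (SE). Genes were called at an adjusted p under 0.05 in edgeR's quasi-likelihood test fitted on all 12 libraries. CPM is not corrected for transcript length, so it compares libraries and not genes. The vehicle libraries held counts in 24300 to 24817 genes and the combination libraries in 26900 to 27356. Mitochondrially encoded transcripts took 9.59%, 9.96% and 10.5% of counts with vehicle and 12.5%, 12.9% and 15.3% with both drugs, the highest share being that of combination replicate 3. The part of this share in other results was not tested, and where leaving out that library ended the call of a named gene or moved a list count by over 1.5 times, this is given beside it. The B-cell markers of the line were present in all 6 libraries: the 10 markers summed to 3290 to 3390 CPM with vehicle and 4240 to 4323 CPM with both drugs. MS4A1, which encodes CD20, was at 883, 889 and 841 CPM with vehicle and at 1371, 1508 and 1427 CPM with both drugs. In bulk RNA, a change in every cell and a change in the share of cells that express a gene cannot be told apart.

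With both drugs, 10207 of 17869 genes (57.1%) differed from vehicle, 5298 higher (29.6%) and 4909 lower (27.5%). The counts were near equal but the sizes were not. The median log2 fold change was 1.01 among genes called higher and -0.39 among genes called lower. A change of at least 2-fold was called for 2658 genes upward (14.9%) and for 228 downward (1.28%). For 5528 genes (30.9%) every combination library lay above every vehicle library, and for 5247 (29.4%) below. Upward changes of more than 4 on the log2 scale were seen for 408 genes, and no gene fell that far. The fitted change of genes with no vehicle count, 116 of those tested, depends on the prior count, so the 408 depends on it too. Of the 116, 25 reached 1 CPM with both drugs.

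Most of the large rises started from little or no transcript. Of the 2658 genes at least 2-fold higher, 1928 (72.5%) were under 1 CPM with vehicle, and 661 reached 5 CPM or more with both drugs. Together the 2658 genes took 1.01% ± 0.01 (SD) of all counts with vehicle and 2.96% ± 0.05 with both drugs. Of the 228 genes at least 2-fold lower, 44 had 5 CPM or more with vehicle. These 228 genes took 0.218% of counts with vehicle and 0.093% with both drugs. At any fold, all genes called higher took 25.4% ± 0.39 of counts with vehicle and 35.4% ± 0.82 with both drugs. All genes called lower took 45.3% ± 0.57 of counts with vehicle and 34.9% ± 0.65 with both drugs.

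The split of calls differed between classes of mean level over the 12 libraries, a description over genes that share libraries and depth. Below 0.5 CPM, 30.8% were called higher and 3.12% lower, and from 0.5 to 2 CPM the shares were 36.6% and 7.31%. The share called higher was greatest from 2 to 10 CPM, at 40.7% against 18.2% lower. From 10 to 50 CPM, 25.5% were called higher and 41.0% lower, from 50 to 200 CPM 18.9% and 54.3%, and above 200 CPM 24.2% and 48.8%. Calls depend on counts, so the shares at low level have less power behind them. Protein-coding genes were called higher in 30.9% and lower in 35.1% of cases, against 29.7% and 9.84% for long non-coding genes and 13.0% and 10.6% for pseudogenes.

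**Figure D1:**
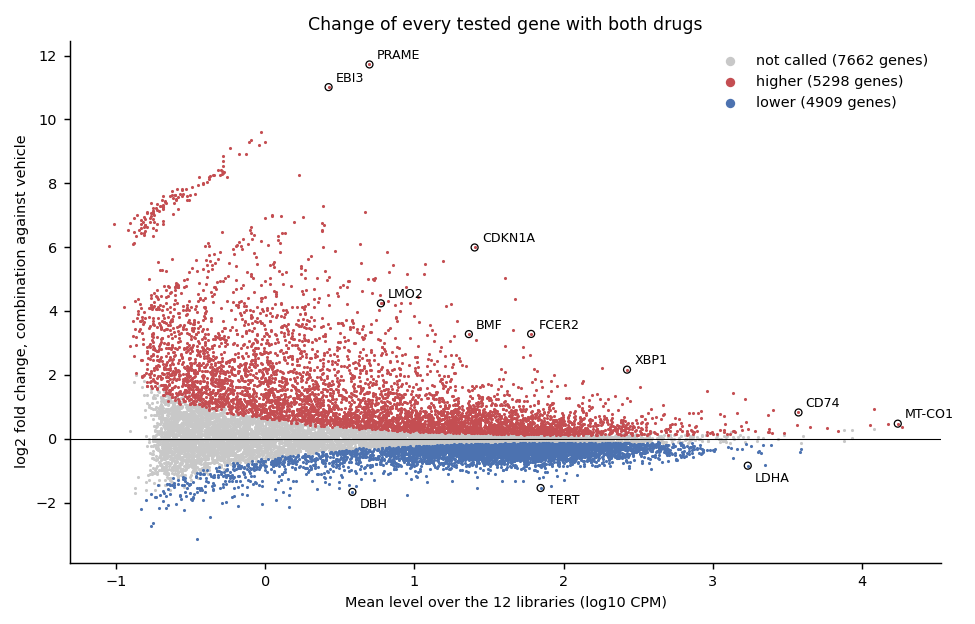
Log2 fold change of both drugs against vehicle (vertical axis) for each of the 17869 tested genes by its mean level over the 12 libraries (horizontal axis, log10 CPM). Red points are the 5298 genes called higher, blue the 4909 called lower and grey those not called, and ringed points are named. Rises reach far higher values than falls, mainly at low level, and the separate band of points above 6 at the left holds genes at 0 with vehicle, whose fitted values depend on the prior count.

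Promoter class differed between genes called higher and genes called lower. Promoters were read from RefSeq (GRCh38.p14) as the 250 bases before and 50 bases after the annotated start, and 11197 tested genes had one. A promoter was classed as CpG-rich when its GC content was at least 50% and its observed-to-expected CpG ratio at least 0.6, and as CpG-poor otherwise. Of the 2609 genes with a CpG-poor promoter, 44.0% were called higher and 18.9% lower. Of the 8588 with a CpG-rich promoter, 26.3% were called higher and 38.1% lower. CpG-poor genes were also the more often called higher at every level class, from 49.1% against 42.9% below 0.5 CPM to 33.3% against 21.5% above 200 CPM. Among protein-coding genes, CpG-rich promoters made up 78.1% of all tested, 67.8% of those called higher and 87.6% of those called lower. Among the changes of at least 2-fold they were below the share of all tested genes in both directions, at 53.7% of 1257 higher and 63.9% of 61 lower genes.

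Promoters of 4 genes with large changes show the range, chosen after their values were seen, with every CpG in capitals and each sequence written 5′ to 3′ on the gene's strand. EBI3 encodes the subunit shared by interleukin-27 and interleukin-35, and its window (chr19:4229273-4229572, plus strand) holds 11 CpG at an observed-to-expected ratio of 0.33. FCER2 encodes the IgE receptor CD23, and its window (chr19:7702082-7702381, minus strand) holds 6 CpG at a ratio of 0.35. CDKN1A encodes the cell cycle inhibitor p21, and its window (chr6:36678464-36678763, plus strand) holds 29 CpG at 0.72. PRKAR2B encodes a regulatory subunit of protein kinase A, and its window (chr7:107044455-107044754, plus strand) holds 46 CpG at 0.92. The first 3 genes rose and PRKAR2B fell, with values given further on.
EBI3: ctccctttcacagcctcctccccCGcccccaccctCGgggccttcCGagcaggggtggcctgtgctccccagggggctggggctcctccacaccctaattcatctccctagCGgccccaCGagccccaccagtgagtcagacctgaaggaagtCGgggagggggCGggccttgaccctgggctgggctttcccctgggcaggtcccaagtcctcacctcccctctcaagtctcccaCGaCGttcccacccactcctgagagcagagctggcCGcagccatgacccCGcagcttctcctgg
FCER2: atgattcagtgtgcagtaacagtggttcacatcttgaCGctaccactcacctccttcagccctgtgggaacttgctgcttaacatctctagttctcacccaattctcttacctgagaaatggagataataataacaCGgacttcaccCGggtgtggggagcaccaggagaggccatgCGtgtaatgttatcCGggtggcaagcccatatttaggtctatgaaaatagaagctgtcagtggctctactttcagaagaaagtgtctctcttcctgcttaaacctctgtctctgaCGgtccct
CDKN1A: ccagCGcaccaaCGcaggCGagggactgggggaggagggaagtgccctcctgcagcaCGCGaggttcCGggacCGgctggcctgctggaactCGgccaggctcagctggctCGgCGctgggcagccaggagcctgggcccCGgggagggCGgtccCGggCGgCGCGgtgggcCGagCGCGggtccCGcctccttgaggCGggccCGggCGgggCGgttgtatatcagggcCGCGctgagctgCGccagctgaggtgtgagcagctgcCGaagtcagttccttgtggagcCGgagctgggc
PRKAR2B: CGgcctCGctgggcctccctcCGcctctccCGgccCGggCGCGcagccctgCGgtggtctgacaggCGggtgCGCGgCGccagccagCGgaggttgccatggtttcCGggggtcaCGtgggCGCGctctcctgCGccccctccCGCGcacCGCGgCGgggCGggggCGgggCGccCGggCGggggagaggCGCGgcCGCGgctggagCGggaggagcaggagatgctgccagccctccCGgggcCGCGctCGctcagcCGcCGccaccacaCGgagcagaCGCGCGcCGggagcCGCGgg
Both a CpG-poor and a CpG-rich promoter are among the rises. On both strands, the GC box (GGGCGG) matched 2 times in the EBI3 window, 4 times in that of CDKN1A and 3 times in that of PRKAR2B. It occurs in 44.6% of all 27305 RefSeq promoters and in 68.9% of the 10085 promoters of tested protein-coding genes. The CCAAT box (CCAAT), present in 35.7% and 37.4% of these, matched 1 time, in FCER2. A match describes the letters only.

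**Figure D2:**
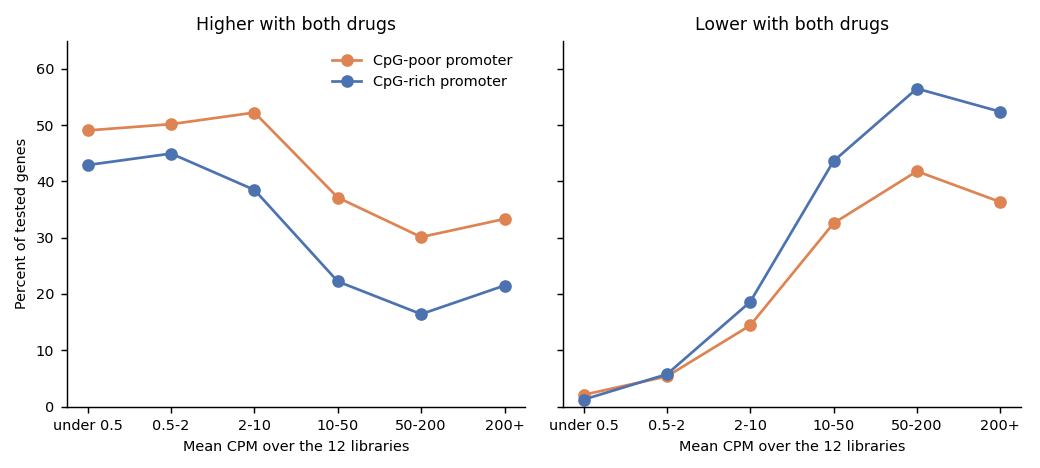
Percent of tested genes called higher (left) and lower (right) with both drugs, by mean level over the 12 libraries (CPM classes, horizontal axis) and by promoter class. Orange points are CpG-poor and blue points CpG-rich promoters; the orange line lies above the blue at every level on the left, and below it from 0.5 CPM upward on the right.

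The 12 largest rises to at least 5 CPM included those of PRAME, EBI3, CAVIN1, ALDH1A1, COL1A1, CX3CR1, ERBB3, CCM2L, CDKN1A, MOXD1 and SYNPO. The log2 fold changes of the 12 ran from 5.73 to 11.72. They come from unrelated families: a cancer-testis antigen (PRAME), a cytokine subunit (EBI3), a caveolar coat protein (CAVIN1), a retinaldehyde dehydrogenase (ALDH1A1), a chain of type I collagen (COL1A1), the fractalkine receptor (CX3CR1) and a receptor of the EGF receptor family (ERBB3). For all 12, each combination library lay above all 9 other libraries of the series, as was the case for 8.83% of tested genes. The 12 were picked for high values in these combination libraries, which favours this, so the count is a description.

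CDKN1A stood out for its level as well as its fold. It was at 1.19, 1.02 and 0.776 CPM with vehicle and at 67.4, 62.8 and 59.7 CPM with both drugs, groups that lie far apart. Its log2 fold change was 5.99 ± 0.12 (SE), a 63.5-fold rise (edgeR adjusted p = 8.06e-24). With 1 drug it was at 30.5, 34.6 and 36.8 CPM for the inhibitor and 2.40, 3.19 and 3.34 CPM for 5-azacitidine. The combination thus lay above both single drugs, by 0.91 ± 0.08 on the log2 scale over the inhibitor alone (edgeR adjusted p = 1.05e-07).

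PRAME and EBI3 had no count in any vehicle library. PRAME was at 10.1, 12.5 and 12.2 CPM with both drugs, at least 139-fold higher than the 3 counts in 1 library that a count of 0 allows. It had no count with 5-azacitidine alone and 6.97, 9.17 and 8.99 CPM with the inhibitor alone. EBI3 was at 7.14, 7.05 and 7.10 CPM with both drugs, at least 85.3-fold higher on the same floor, and at 2.96, 2.95 and 4.37 CPM with the inhibitor alone. The difference from the inhibitor was called for both, at log2 0.48 for PRAME (edgeR adjusted p = 0.023) and 1.06 for EBI3 (edgeR adjusted p = 0.000184). CX3CR1 had the widest such gap of the 12, at 1.74, 2.43 and 2.27 CPM with the inhibitor and 7.25, 6.77 and 7.37 CPM with both drugs, a log2 difference of 1.74 (edgeR adjusted p = 2.37e-06). In all, 9 of the 12 were called higher than with the inhibitor alone, a comparison in which 1312 genes (7.34%) were called, 806 higher (4.51%) and 506 lower (2.83%). All 12 were called higher than with 5-azacitidine alone, where 9614 genes (53.8%) were called, 5123 higher (28.7%) and 4491 lower (25.1%). Both counts reuse the combination libraries by which the 12 were picked, which favours such calls, so they too are descriptions.

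In all, 116 tested genes had no count in any vehicle library. All 116 were called higher, but such genes could pass the filter only through counts in the treated groups, so the count is given as a description. They summed to 98.0 CPM with both drugs, 59.3 CPM with the inhibitor alone and 3.24 CPM with 5-azacitidine alone, and 25 of them reached 1 CPM with both drugs.

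Among genes already at 10 CPM or more with vehicle, the largest rises were those of FCER2, HVCN1, COL9A2, FCGR2B, MYBPC2, LAPTM5, MT2A and ADGRL1, with log2 fold changes from 2.18 to 3.28. FCER2 was at 12.1, 11.9 and 11.9 CPM with vehicle and at 118, 116 and 113 CPM with both drugs, a 9.73-fold rise (log2 3.28 ± 0.07, edgeR adjusted p = 1.24e-23). Several act in the B-cell surface response: HVCN1, a voltage-gated proton channel of B cells, rose from 10.2 ± 0.94 to 76.0 ± 3.26 CPM, and FCGR2B, the inhibitory IgG receptor, from 16.5 ± 1.06 to 101 ± 3.91 CPM. LAPTM5, a lysosomal membrane protein of blood cells, was at 61.5, 64.7 and 71.7 CPM with vehicle and at 321, 305 and 298 CPM with both drugs. Of the 8 genes, 5 were called higher than with the inhibitor alone, the exceptions being FCGR2B (log2 0.09, edgeR adjusted p = 0.376), MT2A (log2 0.19, edgeR adjusted p = 0.113) and ADGRL1 (log2 0.13, edgeR adjusted p = 0.212). The 8 were picked for their rise in the same combination libraries, which favours such calls. COL9A2 and FCGR2B hold fractional counts, from reads shared with other loci.

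**Figure D3:**
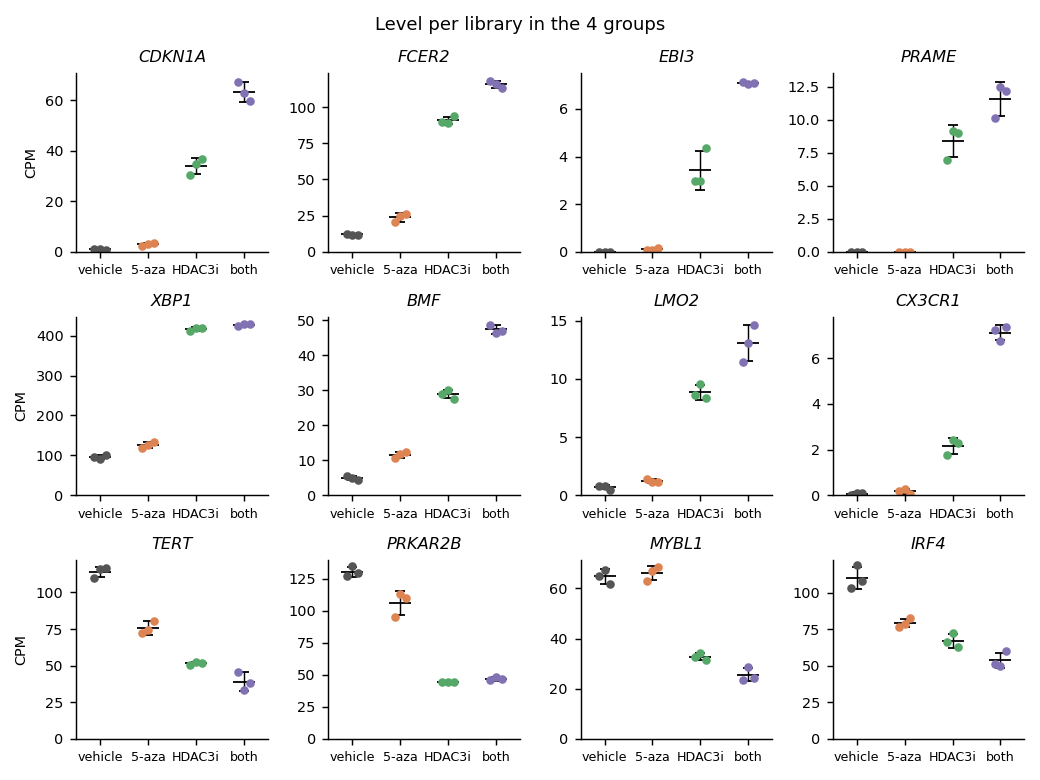
Level in CPM (vertical axes, each from 0) of 12 genes in each library of the 4 groups (horizontal axes: vehicle, 5-azacitidine, HDAC3 inhibitor, both drugs). Points are libraries, bars the mean and SD of 3 libraries. In the upper 2 rows the combination libraries lie above vehicle and in the lowest row below it, and the inhibitor libraries lie nearer to the combination than the 5-azacitidine libraries do.

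The largest falls from at least 5 CPM were those of DBH, TERT, SARDH, KLF15, PRKAR2B, SVIL-AS1, ZDHHC11, MYBL1, CRACR2A, UBASH3B, WDR4 and HELQ, with log2 fold changes from -1.67 to -1.30. TERT, the catalytic subunit of telomerase, was at 110, 116 and 116 CPM with vehicle and at 45.9, 33.5 and 37.9 CPM with both drugs (log2 fold change -1.54 ± 0.07, edgeR adjusted p = 2.69e-16). It was at 72, 74.5 and 80.7 CPM with 5-azacitidine alone and at 50.5, 52.3 and 52.0 CPM with the inhibitor alone. The 4 groups did not overlap, and the combination was lower than each single drug, by a log2 difference of -0.39 from the inhibitor (edgeR adjusted p = 0.000823) and -0.95 from 5-azacitidine (edgeR adjusted p = 1.01e-11).

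MYBL1 encodes A-MYB, a transcription factor of germinal-centre B cells. It was at 65.1, 67.5 and 61.8 CPM with vehicle, at 63.2, 67.0 and 68.5 CPM with 5-azacitidine alone and at 23.6, 28.5 and 24.4 CPM with both drugs (log2 fold change -1.34 ± 0.07, edgeR adjusted p = 3.55e-15). PRKAR2B was at 127, 135 and 130 CPM with vehicle and at 45.6, 48.4 and 46.7 CPM with both drugs (log2 fold change -1.47 ± 0.06, edgeR adjusted p = 9.59e-18), next to 44.3, 44.2 and 44.4 CPM with the inhibitor alone. The difference of PRKAR2B from the inhibitor alone was 0.09 on the log2 scale and was not called (edgeR adjusted p = 0.402). Of the 12 falls, 6 were called lower than with the inhibitor alone (TERT, ZDHHC11, MYBL1, UBASH3B, WDR4 and HELQ) and the other 6 were not called. The 12 were picked for low values in the same combination libraries, which favours such calls.

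DBH, which encodes dopamine beta-hydroxylase, and SARDH, a mitochondrial sarcosine dehydrogenase, lie next to each other on chromosome 9 on opposite strands. DBH runs from 133636363 to 133659329 and SARDH from 133663560 to 133739955 (GRCh38). SARDH was at 41.2, 38.7 and 41.1 CPM with vehicle and at 14.9, 13.2 and 13.5 CPM with both drugs, and DBH at 4.93, 6.76 and 6.54 CPM and at 1.99, 1.57 and 2.15 CPM. Both fell, and a lack of overlap between the groups was a condition for naming them. The counting ignored strand, so SVIL-AS1, an antisense gene, cannot be told apart from its partner, and 7 of the 12 falls hold fractional counts from reads shared with other loci, TERT, DBH, ZDHHC11 and HELQ among them.

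In absolute CPM, the largest gains were mostly mitochondrial and immune transcripts. MT-CO1, a cytochrome oxidase subunit encoded in the mitochondrion, was at 14280, 15024 and 14832 CPM with vehicle and at 18149, 20305 and 22466 CPM with both drugs. CD74, the MHC class II invariant chain, was at 2843, 2702 and 2798 CPM and at 4864, 4681 and 5154 CPM. HLA-DRA, the class II alpha chain, was at 995, 990 and 997 CPM and at 2217, 2360 and 2405 CPM. The log2 fold changes of these 3 were 0.47 ± 0.07, 0.82 ± 0.05 and 1.23 ± 0.05 (edgeR adjusted p = 1.85e-06, 2.43e-13 and 1.19e-16). MT-CO2, MT-CO3, MT-CYB, ACTB and TMSB4X were the other gains.

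The largest losses in CPM were those of chaperones, glycolytic enzymes and growth-related genes: HSP90AA1, GAPDH, LDHA, HSP90AB1, HSPA8, NCL, HSPD1 and TUBB. HSP90AA1, the inducible HSP90, was at 2918, 2784 and 2652 CPM with vehicle and at 1474, 1741 and 1519 CPM with both drugs. LDHA, lactate dehydrogenase, was at 2388, 2217 and 2119 CPM and at 1217, 1284 and 1230 CPM. HSP90AA1 and LDHA fell by 0.81 and 0.84 on the log2 scale (edgeR adjusted p = 9.99e-12 and 2.38e-12). None of the 16 gains and losses was called against the inhibitor alone by edgeR, where 2 had an unadjusted p under 0.05 upward and 4 downward, while DESeq2 called 1 higher and limma voom called 2 higher and 1 lower. All 16 hold some fractional counts, so reads shared with pseudogenes or nuclear copies are divided among loci.

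The genes were next grouped into 36 lists by function or cell type, some of which share genes. Each list is described by the members called higher and lower, to be read against 29.6% and 27.5% of all tested genes, and by its median log2 fold change, to be read against 0.01 for all tested genes. Both vary with level. The share called lower was 41.0% from 10 to 50 CPM (median -0.10) and 54.3% from 50 to 200 CPM (median -0.18). Above 200 CPM it was 48.8% (median -0.12). The lists were not set against genes of like level, so falls in lists of well-expressed genes are to be read beside these shares. Where edgeR called no member of a list in a direction, DESeq2, limma voom and an unadjusted p under 0.05 also gave 0, unless another count is printed. Members without counts in vehicle were tested only where a treated group had enough counts, so in lists with many silent members the counts leave out members that stayed silent.

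Antigen presentation moved upward. Of 23 tested genes of MHC class II presentation, 18 were called higher and 3 lower (78.3% and 13.0%), with a median of 0.91. HLA-DMA, a chain of the peptide-loading chaperone HLA-DM, was at 161, 157 and 173 CPM with vehicle and at 405, 388 and 383 CPM with both drugs (log2 fold change 1.26 ± 0.05, edgeR adjusted p = 5.05e-17). The chains of HLA-DR, HLA-DP, HLA-DQ and HLA-DO were all among the 18. The 3 that fell, named after their values were seen, were not chains of the complex but factors that bind class II promoters: RFXAP (-0.43), NFYA (-0.35) and RFX5 (-0.34). CIITA, the class II co-activator, rose from 87.0 ± 3.16 to 108 ± 14.8 CPM (log2 0.31 ± 0.07, edgeR adjusted p = 0.000333).

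Of 21 class I genes, 14 were called higher and 3 lower, with a median of 0.35. HLA-E, a non-classical class I molecule read by natural killer cells, was at 172, 171 and 184 CPM with vehicle and at 412, 405 and 377 CPM with both drugs (log2 fold change 1.19 ± 0.05, edgeR adjusted p = 1.09e-16). B2M, the class I light chain, rose from 497 ± 16.2 to 874 ± 34.5 CPM. NLRC5, the class I co-activator, was among the 3 that fell (-0.23), as were PSME2 and PSMB10 of the immunoproteasome. PSMB10 was not called without vehicle replicate 1, vehicle replicate 3 or combination replicate 3 (edgeR adjusted p = 0.0567, 0.117 and 0.130). HLA genes share reads with each other and vary between people and lines, so their single values are less certain than the list's direction.

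Surface molecules that B cells show to T cells also rose. Of 24 tested genes of costimulation and immune checkpoints, 19 were called higher and 1 lower, with a median of 0.99, and 10 further genes of the list did not pass the filter. CD86, a ligand of CD28, was at 50.3, 44.4 and 42.5 CPM with vehicle and at 143, 149 and 134 CPM with both drugs, a log2 fold change of 1.64 ± 0.06 (edgeR adjusted p = 7.14e-18). TNFSF9, the ligand of 4-1BB, was at 33.8, 32.8 and 33.2 CPM and at 121, 113 and 112 CPM. Both were called higher than with the inhibitor alone, by log2 0.43 (edgeR adjusted p = 5.37e-05) and 0.34 (edgeR adjusted p = 0.000165). VSIR and HAVCR2, inhibitory receptors known as VISTA and TIM-3, rose by 1.53 and 1.97 on the log2 scale. TNFRSF14, the partner of BTLA, was the 1 called lower (-0.30), and it was not called without combination replicate 2 or combination replicate 3 (edgeR adjusted p = 0.0541 and 0.111).

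Interferon-stimulated genes rose in 41 of 55 tested cases and fell in 5, with a median of 0.77. OAS3, a sensor of double-stranded RNA, was at 25.7, 26.6 and 26.6 CPM with vehicle and at 120, 107 and 116 CPM with both drugs (log2 fold change 2.12 ± 0.06, edgeR adjusted p = 1.02e-20). PARP9 and DTX3L, whose products work as a pair and whose genes overlap head to head on chromosome 3, rose by 4.00 ± 0.13 and 2.62 ± 0.13 on the log2 scale, and reads in their overlap cannot be assigned by strand. The combination was called above the inhibitor alone for 11 of the 55 and below it for none, beside 4.51% and 2.83% of all genes. The 5 that fell, named after their values were seen, were IRF9 (-0.69), PARP10 (-0.36), LAP3 (-0.33), ISG15 (-0.29) and BST2 (-0.19); without combination replicate 3 the number was 3, IRF9 and BST2 not being called (edgeR adjusted p = 0.0566 and 0.0606). Without vehicle replicate 3 neither IRF9 nor ISG15 was called (edgeR adjusted p = 0.0938 and 0.055), and without combination replicate 1 IRF9 was not (edgeR adjusted p = 0.119).

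Of 23 tested NF-kB targets and inflammatory genes, 16 were called higher and 6 lower, with a median of 0.63. CD83, a maturation marker of activated B cells and dendritic cells, was at 29, 31 and 32.8 CPM with vehicle and at 112, 113 and 117 CPM with both drugs. Its log2 fold change was 1.88 ± 0.06 (edgeR adjusted p = 1.61e-19), and it was called above the inhibitor alone by 0.62 (edgeR adjusted p = 1.62e-07). TNF rose from 3.04 ± 0.62 to 17.8 ± 1.29 CPM. The 6 lower genes, named after their values were seen, included the factor subunits RELB (-0.76), NFKB2 (-0.56) and NFKB1 (-0.35), the others being SOD2, TNFAIP3 and BIRC3. BIRC3 was not called when any 1 vehicle library, combination replicate 1 or combination replicate 3 was left out (edgeR adjusted p = 0.0532 to 0.211).

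Genes known to be repressed by BCL6 rose in 23 of 29 tested cases and fell in 5, with a median of 1.36. CDKN1A, FCER2 and CD86 belong to this list, as does CCR7, the receptor that guides lymphocytes to lymph nodes, which was at 0.276, 0.388 and 0.527 CPM with vehicle and at 13.1, 11.8 and 14.2 CPM with both drugs. CCR7 rose by 5.03 ± 0.20 on the log2 scale (edgeR adjusted p = 1.23e-17) and lay above the inhibitor alone by 0.75 (edgeR adjusted p = 0.000478). The 5 that fell included, named after their values were seen, IRF4 (-1.03), ATR (-0.65), CHEK1 (-0.34) and TNFRSF14 (-0.30), the last with the call that 2 single libraries ended. BCL6 itself was at 238, 235 and 239 CPM with vehicle and at 234, 208 and 224 CPM with both drugs, and the difference was not called (log2 -0.09 ± 0.05, edgeR adjusted p = 0.132).

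Plasma-cell genes were called higher in 13 of 21 cases and lower in 2, with a median of 0.46. XBP1, the transcription factor of the secretory programme, was at 95.5, 92.0 and 100 CPM with vehicle and at 424, 429 and 429 CPM with both drugs (log2 fold change 2.16 ± 0.05, edgeR adjusted p = 7.05e-22). PRDM1, which encodes BLIMP-1, was at 2.43, 2.35 and 2.05 CPM and at 9.22, 8.17 and 9.03 CPM (log2 fold change 1.95 ± 0.12, edgeR adjusted p = 1.75e-13). IRF4, the third factor of plasma-cell differentiation, went the other way: it was at 103, 119 and 108 CPM with vehicle and at 51.2, 50.1 and 59.8 CPM with both drugs. IRF4 fell by 1.03 on the log2 scale (SE 0.07, edgeR adjusted p = 7.99e-13), and the combination lay below the inhibitor alone by a log2 difference of -0.31 (edgeR adjusted p = 0.00549). XBP1 and PRDM1 did not differ by test from the inhibitor alone, at log2 0.05 (edgeR adjusted p = 0.670) and -0.07 (edgeR adjusted p = 0.764). The number of plasma-cell genes called lower was between 1 and 4 when single libraries were left out, at 4 without vehicle replicate 2 or combination replicate 3 and at 1 without vehicle replicate 1, vehicle replicate 3 or combination replicate 1.

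Germinal-centre genes split, 11 of 27 higher and 8 lower, with a median of 0.02. LMO2, a transcriptional co-regulator that marks germinal-centre B cells, was at 0.773, 0.831 and 0.471 CPM with vehicle and at 11.5, 13.1 and 14.6 CPM with both drugs (log2 fold change 4.24 ± 0.17, edgeR adjusted p = 1.37e-17). KANK1, in contrast, was at 173, 174 and 172 CPM and at 78.2, 75.4 and 82.8 CPM (log2 fold change -1.13 ± 0.05, edgeR adjusted p = 4.68e-16). B-cell receptor signalling also split, 18 of 32 higher and 10 lower, with a median of 0.21. PRKCB, the kinase downstream of the receptor, rose from 78.4 ± 5.71 to 192 ± 2.72 CPM, and CR2, the complement receptor CD21, from 34.9 ± 1.69 to 89.2 ± 2.13 CPM. Of the 10 markers of B-cell identity, 6 were called higher and 2 lower, the fall of CD37 being from 97.5 ± 1.70 to 77.9 ± 2.64 CPM.

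**Figure D4:**
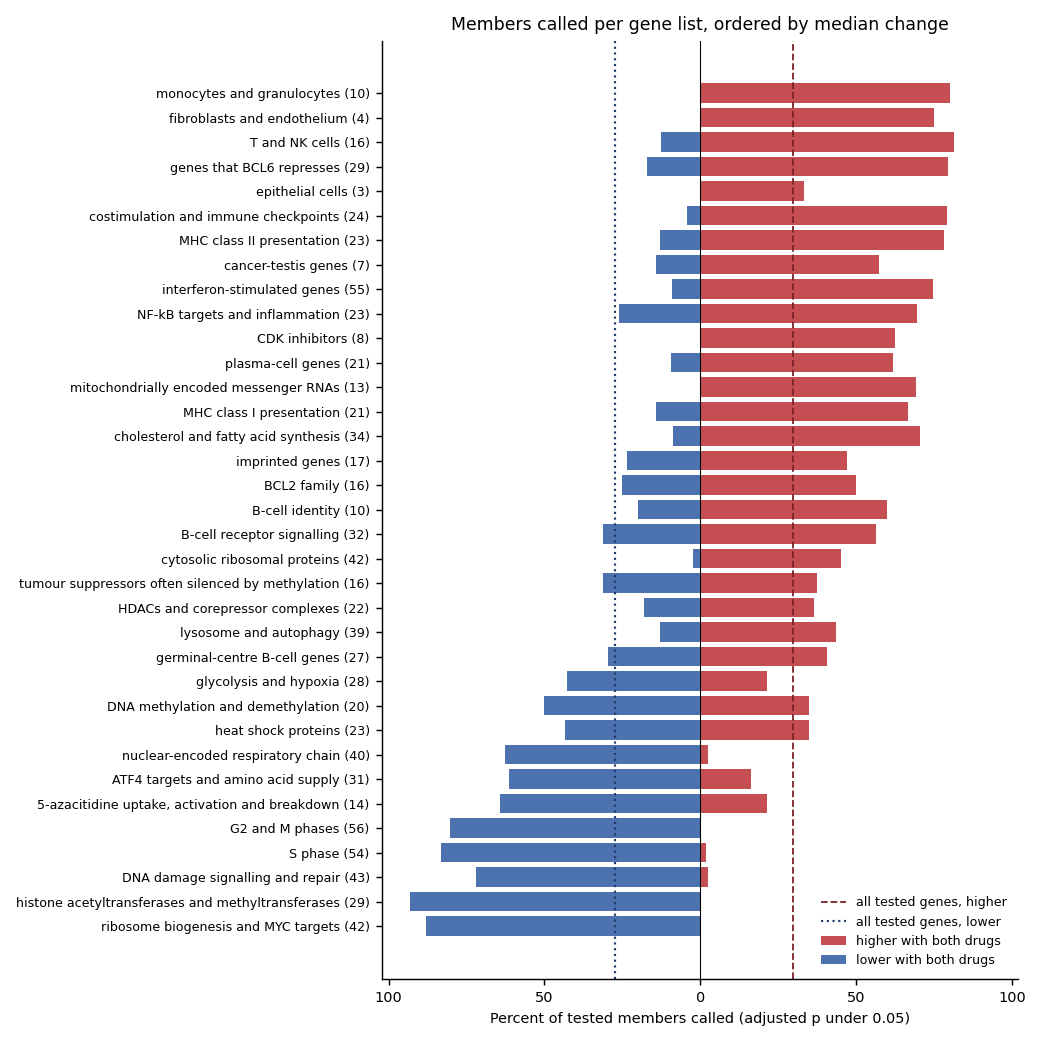
Percent of the tested members of each gene list shown called higher (red, to the right) or lower (blue, to the left) with both drugs, ordered by the list's median change, with the number of tested members in brackets. Vertical lines mark the same shares over all tested genes, 29.6% higher and 27.5% lower. Immune and presentation lists lie mainly to the right, and the cell cycle, repair, ribosome biogenesis and histone acetyltransferase and methyltransferase lists mainly to the left.

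Proliferation genes fell broadly and by modest amounts. Of 56 G2 and M phase genes, none was called higher and 45 were called lower (80.4%), with a median of -0.28. CENPF, a kinetochore protein, was at 216, 213 and 201 CPM with vehicle and at 107, 127 and 121 CPM with both drugs (log2 fold change -0.82 ± 0.06, edgeR adjusted p = 1.54e-11). CCNA2, cyclin A2, fell from 279 ± 5.24 to 185 ± 10.2 CPM. Of 54 S-phase genes, 45 were called lower (83.3%) and 1 higher, TK1 (log2 0.54), with a median of -0.34. UNG, the uracil glycosylase, was at 176, 175 and 173 CPM and at 96.2, 95.3 and 100 CPM, and CCNE1, cyclin E1, fell from 44.0 ± 1.59 to 25.4 ± 3.87 CPM. Against the inhibitor alone, 12 of the 54 S-phase genes were called lower with both drugs and none higher, while 8 of the 56 G2 and M genes were called higher and 4 lower. Of all tested genes, 4.51% were called higher and 2.83% lower in that comparison. Its calls ranged from 791 to 1848 genes when single libraries were left out. Of 43 DNA damage and repair genes, 31 were called lower and 1 higher (CHEK2, log2 0.22), with a median of -0.34. MSH6, a mismatch repair protein, was at 408, 408 and 390 CPM with vehicle and at 276, 279 and 262 CPM with both drugs. The 1 rise in each of these 2 lists became 2 S-phase genes without combination replicate 3, and 3 or 2 repair genes without vehicle replicate 3 or combination replicate 2.

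Of 8 tested CDK inhibitor genes, 5 were called higher and none lower. Beside CDKN1A, CDKN2D rose from 17.3 ± 0.43 to 29.5 ± 1.17 CPM and CDKN2B from 0.673 ± 0.248 to 1.88 ± 0.33 CPM. CDKN2A, CDKN2C and CDKN3 were not called. BTG2, an antiproliferative factor, was at 65.4, 65.6 and 65.3 CPM with vehicle and at 236, 197 and 230 CPM with both drugs (log2 fold change 1.76 ± 0.06, edgeR adjusted p = 1.72e-19), and MDM2, a ubiquitin ligase, fell by 0.46 on the log2 scale. MYC was at 264, 250 and 242 CPM and at 325, 280 and 331 CPM (log2 fold change 0.31 ± 0.06, edgeR adjusted p = 3.35e-05).

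In the BCL2 family, which sets the threshold for apoptosis, 8 of 16 tested genes were called higher and 4 lower. BMF, a pro-apoptotic member with only the BH3 domain, was at 5.47, 4.93 and 4.30 CPM with vehicle and at 48.7, 46.3 and 47.0 CPM with both drugs. It rose 9.69-fold (log2 3.28 ± 0.08, edgeR adjusted p = 1.01e-21) and lay above the inhibitor alone by 0.72 (edgeR adjusted p = 2.89e-07). PMAIP1, which encodes the BH3 protein NOXA, rose from 15.8 ± 2.02 to 31.8 ± 1.83 CPM. The rises were not limited to killers: the survival genes BCL2A1 and BCL2 rose by 2.32 ± 0.14 and 1.25 ± 0.21 on the log2 scale, BCL2 reaching 2.50 ± 0.16 CPM. BID, BCL2L2, BAX and BCL2L1 were the 4 called lower.

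Genes of ribosome assembly fell, and most genes of the ribosome itself did not. Of 42 ribosome biogenesis and MYC target genes, 37 were called lower (88.1%), with a median of -0.53. None was called higher by edgeR or limma voom, against 1 by DESeq2 and 1 at an unadjusted p under 0.05. LYAR, a nucleolar protein, was at 144, 134 and 136 CPM with vehicle and at 63.3, 67.9 and 63.7 CPM with both drugs (log2 fold change -1.08 ± 0.06, edgeR adjusted p = 4.76e-15). DDX21, a nucleolar RNA helicase, was at 567, 561 and 531 CPM and at 309, 359 and 321 CPM. Of 42 cytosolic ribosomal proteins, 19 were called higher and 1 lower (RPS2, log2 -0.20), with a median of 0.13 and no change past 0.31. The 19 became 11 without vehicle replicate 2 or combination replicate 2, the 1 became 5 without combination replicate 2 and 2 without vehicle replicate 1, and none of the 19 passed a test against a fold of 1.2. Without vehicle replicate 3 or combination replicate 3 RPS2 was not called (edgeR adjusted p = 0.067 and 0.0819), which left 0 lower.

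Respiratory chain genes are given by the genome that encodes them. Of 40 nuclear genes, 25 were called lower (62.5%) and 1 higher (NDUFB9, log2 0.28), with a median of -0.22. Without combination replicate 3, 20 were called lower. These values lie near those of all tested genes at 50 to 200 CPM, of which 54.3% were called lower (median -0.18). Above 200 CPM the share was 48.8% (median -0.12). CYC1, cytochrome c1, was at 290, 264 and 302 CPM with vehicle and at 204, 206 and 171 CPM with both drugs (log2 fold change -0.55 ± 0.07, edgeR adjusted p = 9.33e-08). Of the 13 mitochondrially encoded messenger RNAs, 9 were called higher and none lower, with a median of 0.41. MT-CO2 was at 12138, 11800 and 13048 CPM and at 15095, 16632 and 19512 CPM, the third of the combination libraries being the one with the highest mitochondrial share. With DESeq2 the 9 became 5, and MT-CYB was not called (DESeq2 adjusted p = 0.0614). In edgeR the number was 12 with DESeq2 size factors, 11 with library totals only, and 13 with the stricter filter or no filter. Without combination replicate 3 the number was 7. The part of that library in the result was not tested further.

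Glycolysis and hypoxia genes were called lower in 12 of 28 cases and higher in 6, with a median of -0.07. HK2, hexokinase 2, was at 129, 122 and 117 CPM with vehicle and at 61.9, 62.1 and 61.1 CPM with both drugs (log2 fold change -0.98 ± 0.05, edgeR adjusted p = 6.09e-15). DDIT4, the mTORC1 inhibitor also known as REDD1, was at 4.67, 3.96 and 3.77 CPM and at 29.2, 26.4 and 28 CPM, a log2 rise of 2.76 ± 0.09 (edgeR adjusted p = 5.50e-19). RPTOR, which encodes the raptor subunit of mTORC1, fell from 95.5 ± 2.98 to 65.1 ± 4.49 CPM, was at 50.1, 48.2 and 52.9 CPM with 5-azacitidine alone, and so lay above that drug alone by log2 0.38 (edgeR adjusted p = 4.27e-06). Genes of the ATF4 response and amino acid supply were called lower in 19 of 31 cases and higher in 5. SLC7A5, the large neutral amino acid transporter, was at 636, 633 and 638 CPM with vehicle and at 411, 377 and 382 CPM with both drugs.

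Cholesterol and fatty acid synthesis was called higher in 24 of 34 genes and lower in 3, with a median of 0.30. TM7SF2, a sterol reductase, was at 26.9, 26.0 and 31.1 CPM with vehicle and at 65.1, 68.3 and 66.1 CPM with both drugs, and HMGCS1, the HMG-CoA synthase of the mevalonate pathway, at 197, 212 and 199 CPM and at 304, 313 and 303 CPM. Their log2 fold changes were 1.25 ± 0.07 and 0.60 ± 0.05 (edgeR adjusted p = 5.70e-14 and 3.77e-10). Against the inhibitor alone, 15 of the 34 were called higher and 1 lower (44.1% higher, beside 4.51% of all genes), and the list's median was 0.18 in that comparison. The 3 that fell against vehicle, named after their values were seen, were the fatty acid enzymes FASN (-0.61), ACACA (-0.46) and ACLY (-0.32).

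Chromatin genes moved in both directions. The genes of the drug targets were not called: HDAC3 was at 88.8, 90.5 and 86.3 CPM with vehicle and at 94.3, 91.5 and 91.4 CPM with both drugs, and DNMT1, the maintenance DNA methyltransferase, at 791, 799 and 761 CPM and at 792, 708 and 799 CPM (log2 0.07 and -0.03, edgeR adjusted p = 0.278 and 0.681). With a stricter filter on low counts HDAC3 was called, at 0.15. UHRF1, the partner that guides DNMT1 to replicated DNA, was at 302, 308 and 300 CPM and at 207, 190 and 198 CPM. It fell by 0.61 on the log2 scale (SE 0.05, edgeR adjusted p = 1.52e-11) and lay below each single drug. Of 20 genes of DNA methylation and demethylation, 7 were called higher and 10 lower, with a median of -0.09. DNMT3A and DNMT3B, the de novo methyltransferases, rose by 0.75 ± 0.10 and 0.84 ± 0.08, and TET2, which oxidises methylcytosine, rose from 0.0369 ± 0.032 to 0.469 ± 0.100 CPM.

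Of the HDACs and the members of their corepressor complexes, 8 of 22 were called higher and 4 lower. HDAC5, HDAC7 and HDAC9, deacetylases of class IIa, rose by 0.82, 0.63 and 0.90 on the log2 scale. The corepressor scaffold NCOR1 fell by 0.38. Histone acetyltransferases and methyltransferases fell nearly throughout: of 29, none was called higher and 27 were called lower (93.1%), with a median of -0.38. CREBBP, an acetyltransferase often mutated in this lymphoma type, was at 107, 114 and 105 CPM with vehicle and at 64.5, 53.7 and 73.0 CPM with both drugs (log2 fold change -0.76 ± 0.08, edgeR adjusted p = 5.42e-09). EZH2 and SETDB1 were the 2 not called. Of 14 genes of 5-azacitidine uptake, activation and breakdown, 9 were called lower and 3 higher. CTPS1, which makes CTP, fell from 198 ± 6.19 to 129 ± 2.90 CPM, and SAMHD1, which hydrolyses deoxynucleotide triphosphates, rose from 48.9 ± 2.63 to 76.7 ± 2.36 CPM.

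Many genes often used as readouts of DNA demethylation did not pass the filter on low counts. With no filter, 24 of 58 cancer-testis genes, 25 of 36 imprinted genes and 24 of 32 such tumour suppressors had a count in the series. Of 58 cancer-testis genes, 7 passed the filter, of which 4 were called higher (PRAME, TEX14, CTCFL and MAEL) and 1 lower (ACTL8). Without combination replicate 3 neither MAEL nor ACTL8 was called (edgeR adjusted p = 0.0677 and 0.110), which left 0 lower, and ACTL8 was not called without vehicle replicate 3 (edgeR adjusted p = 0.267). Without combination replicate 2 the number lower was 2. Of 36 imprinted genes, 17 passed, with 8 called higher and 4 lower, and of 32 tumour suppressors often silenced by methylation, 16 passed, with 6 higher and 5 lower. DAPK1, a death-associated kinase of the latter list, was at 0.856, 0.720 and 0.582 CPM with vehicle and at 4.01, 4.54 and 4.06 CPM with both drugs (log2 fold change 2.55 ± 0.20, edgeR adjusted p = 1.54e-11).

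Heat shock genes were called lower in 10 of 23 cases and higher in 8. HSPH1, a partner of HSP70, fell from 498 ± 22.7 to 259 ± 21.3 CPM, while HSP90B1, the HSP90 of the endoplasmic reticulum, rose from 350 ± 3.70 to 534 ± 34.8 CPM. Lysosome and autophagy genes were called higher in 17 of 39 cases and lower in 5. PSAP, the precursor of the saposins, was at 494, 496 and 508 CPM with vehicle and at 1466, 1352 and 1352 CPM with both drugs (log2 fold change 1.48 ± 0.05, edgeR adjusted p = 1.23e-19).

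Markers of cell types that the culture should not hold were counted in the same libraries. Of 27 T and NK cell markers, 16 passed the filter, 13 being called higher and 2 lower (ZAP70 and LAT). The 27 summed to 390 to 403 CPM with vehicle and 662 to 675 CPM with both drugs, mostly from TRAC, CD28 and TRBC2. TRAC was at 86.5, 84.9 and 94.1 CPM and at 236.6, 242.2 and 227.5 CPM. CD28 was at 150.4, 146.3 and 141.5 CPM and at 214.3, 227 and 225.6 CPM, and TRBC2 at 96.65, 89.7 and 100.2 CPM and at 100.6, 94.13 and 91.71 CPM. CD3E was at 0.828, 1.14 and 1.11 CPM and at 9.97, 8.92 and 8.13 CPM. CD8A, CD8B, BCL11B and GZMA had no count in any of the 6 libraries, which allows up to 0.0832 CPM per library. Of 24 monocyte and granulocyte markers, 10 passed, with 8 called higher and none lower, and the 24 summed to 76.8 to 79.7 CPM and 256 to 294 CPM. Most of this sum came from MPEG1, at 57.13, 59.32 and 56.63 CPM and at 189.7, 189.4 and 224.6 CPM. ITGAM, the integrin CD11b, was at 0.110, 0.443 and 0.499 CPM with vehicle and at 16.6, 13.7 and 16 CPM with both drugs, whereas S100A8, S100A12, MPO, ELANE and VCAN had no count in any. The epithelial markers summed to 0.776 to 0.969 CPM and 4.04 to 4.49 CPM, with KRT5, KRT8, KRT14, KRT18 and KRT19 at 0 in all 6. Of 3 tested, 1 was called higher, and 2 without combination replicate 2. The fibroblast and endothelial markers summed to 64.3 to 70.3 CPM and 93.6 to 104 CPM, with COL1A2, COL3A1, LUM, VWF, CDH5 and KDR at 0 in all 6, and 3 of 4 tested were called higher, COL1A1 and PDGFRB among them. Most of this sum came from PECAM1, at 62.97, 68.87 and 66.77 CPM and at 84.4, 81.35 and 90.6 CPM. The part of any other cell type in the results was not tested.

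The 3 comparisons against vehicle share their vehicle libraries, so their values are given side by side with no test of likeness. The median absolute log2 fold change over all tested genes was 0.37 for both drugs, 0.31 for the inhibitor alone and 0.14 for 5-azacitidine alone. It was 0.13 between the combination and the inhibitor and 0.34 between the combination and 5-azacitidine. For MHC class II presentation the list medians were 0.91, 0.71 and 0.16 in the order combination, inhibitor, 5-azacitidine. For interferon-stimulated genes they were 0.77, 0.68 and 0.22, for ribosome biogenesis -0.53, -0.44 and -0.09, and for cholesterol and fatty acid synthesis 0.30, 0.13 and 0.00. The G2 and M phase median was -0.28, -0.36 and 0.07, so the combination value there lies between those of the single drugs. The number of genes called between the combination and the inhibitor rested on single libraries: it was 1312 with all, 791 without combination replicate 1 and 839 without combination replicate 3.

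**Figure D5:**
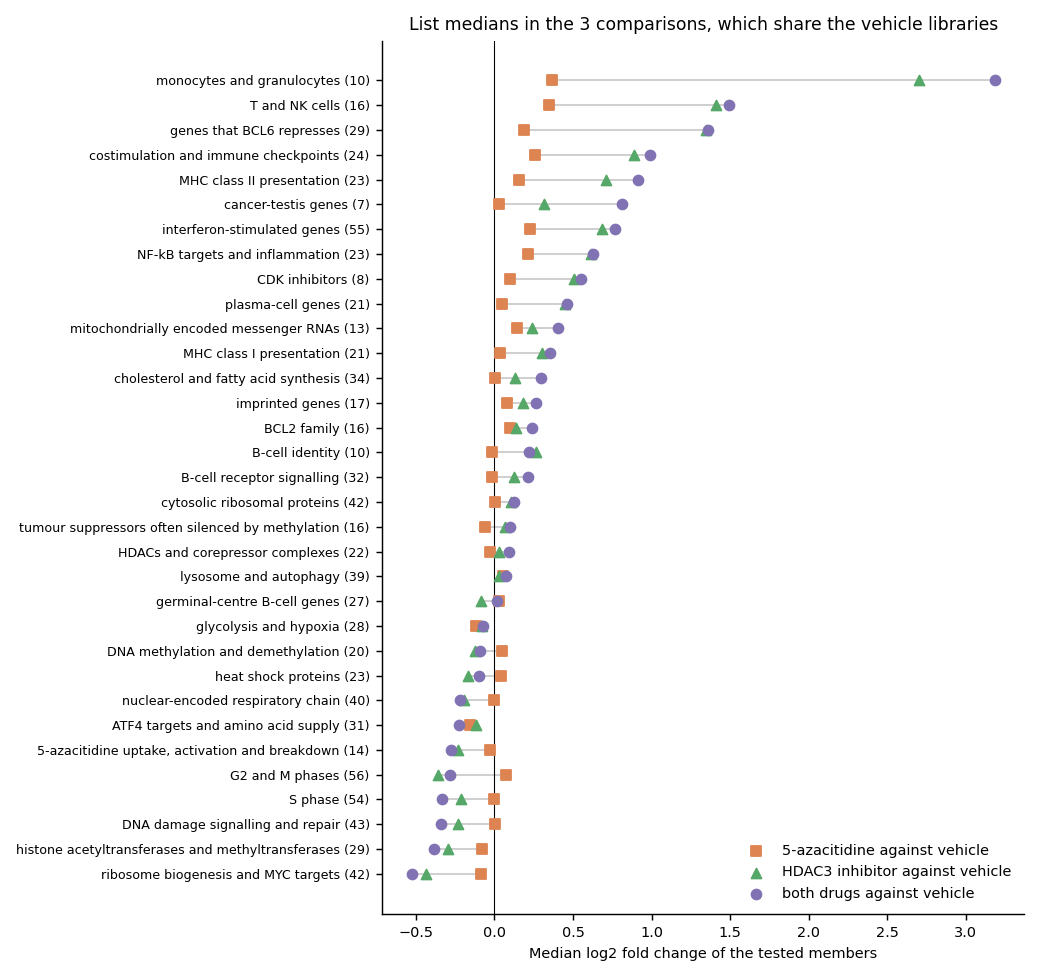
Median log2 fold change of the tested members (horizontal axis) of each gene list with at least 5 tested members, for 5-azacitidine (orange squares), the HDAC3 inhibitor (green triangles) and both drugs (purple circles), each against the same 3 vehicle libraries, with the number of tested members in brackets. For most lists the purple circle lies close to the green triangle and farther from 0 than the orange square. Exceptions include the germinal-centre list and the glycolysis and hypoxia list, where the orange square lies farther from 0 than the purple circle. In the G2 and M phases the inhibitor alone lies farthest below 0.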

How the data were processed

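Polyadenylated RNA of OCI-Ly7 cells was sequenced in 12 libraries. The deposited values are estimated counts (expected counts) per gene, which the authors made with featureCounts 2.1.1 in paired mode, ignoring strand and giving each locus of a multi-mapping read a fraction, per the file headers. Of all values, 96.9% were whole within 1e-06. The submitters' processing notes name STAR 2.7.11b, cutadapt 5.1 and GRCh38, and the header names annotation release 114. Of 16 libraries in the header's command, 4 were not used. The sources used here do not settle if 1 count stands for a pair or for a mate.

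Counts were rounded to whole numbers. Genes were filtered with filterByExpr on the 4 groups and scaled by TMM, and edgeR 4.0.16 (R 4.3.3) fitted 1 mean per group to all 12 libraries, two-sided, with Benjamini-Hochberg adjustment over 17869 genes, which hold 99.9% of counts. The SE is the log2 fold change over the square root of F. The fit was run on simulated counts in which 50 genes each were changed 1.3-, 1.5-, 2- and 4-fold. It recovered 64%, 56%, 70% and 98% of these, with 6 false calls among 150. Far fewer genes were changed there than were called in the data, so the scaling under so wide a change was not tested. Replicates of a group differed by more than sampling noise (chi-square per degree of freedom 4.92 to 6.74 for vehicle, 9.96 to 16.2 for the combination), so none was merged. Floors of 3 counts cover counting error only.

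Symbols were found for 61461 of 78892 gene IDs, and a symbol with several IDs was read from the one with most counts. Named genes were those called and not overlapping between groups: the 12 largest rises to at least 5 CPM, the 12 largest falls from at least 5 CPM, the 8 largest rises from at least 10 CPM, the 8 largest gains and losses in CPM, 24 regulators whatever their result, and, per list, the 4 members with the lowest adjusted p. Other genes were named after their values were seen. Some named genes and the counts of 1 list are not reported here. The members and lists were chosen with earlier results of these data known. Alternatives covered scaling, filter, test (DESeq2 1.42.0, limma voom 3.58.1), samples fitted, blocks, a fold threshold and single libraries left out.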

Additional observations from a re-analysis of the deposited data

How the results depend on the processing

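The split of calls against vehicle, 5298 genes higher and 4909 lower, stayed within 1.5 times under other scalings, DESeq2, limma voom, no filter and a fit of only the groups compared. With a stricter filter, 5 CPM or more in 3 or more libraries, fewer genes enter the test, and 3378 were higher, 698 at least 2-fold higher and 29 at least 2-fold lower, and this raised the log2 fold change of the 10382 shared genes by a median of 0.08. A test against a fold of 1.2 left 2390 genes lower, 5625 called against 5-azacitidine and 122 against the inhibitor. Leaving out single libraries gave 5001 to 5248 higher, 4537 to 4850 lower, 2613 to 2756 at least 2-fold higher, 204 to 246 at least 2-fold lower, 8915 to 9772 called against 5-azacitidine and 791 to 1848 against the inhibitor. Without combination replicate 3, the library with the highest mitochondrial share, 5042 were higher and 4621 lower. Same-numbered replicates did not deviate together (correlations of deviations -0.06, -0.10 and -0.19). With 3 libraries per group this cannot settle if the numbers pair the samples. With the replicate block the counts were 5265 higher and 4897 lower, and with the number in the library name as block 5173 and 4870. Of 3174 pairs of a named gene and an alternative, 3152 kept direction and side of the threshold, 16 lost the call (14 of them against a fold of 1.2), 6 gained one and 0 reversed. Most named genes were picked for a large change or a low adjusted p, which favours keeping the call. The count therefore does not describe other list members, many of which lost the call when 1 library was left out. Of 1220 list counts under alternatives, 89 moved by over 1.5 times, 35 with the fold of 1.2 and 21 with the stricter filter. Depth limits genes of few counts most, and a count of 0 in a vehicle library allows up to 0.0832 CPM.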
